A study of Mus musculus with 4 samples.

Results

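The matrix metalloproteinases (Mmp), the Adamts proteases, the Adamts-like proteins and the tissue inhibitors of metalloproteinases (Timp) were examined in the developing sciatic nerve. Members were taken by gene symbol, as every listed Mmp, Adamts, Adamtsl or Timp gene, which gave 51 genes of 22096 in the tables. They comprise 23 Mmp, 19 Adamts, 5 Adamts-like and 4 Timp genes, listed in 60 transcript rows. RNA from pooled sciatic nerves of mice at postnatal day 7, on a mixed strain background, was sequenced for a control genotype and for a Zeb2 cKO genotype. The product of Zeb2 is a transcription factor with zinc fingers, and cKO stands for conditional knockout, and the comparison asks what differs in the nerve when Zeb2 is deleted. The labels give neither the Cre line, nor the cells it targets, nor the alleles the controls carry. They describe 2 samples in each group, but each group's table holds 1 library, so differences are given by their size with no test between genotypes.

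Mmp and Adamts enzymes are zinc-dependent proteases that act outside the cell. They are made as inactive precursors, and between them they cut collagens, proteoglycans, fibronectin and laminins, trim newly secreted procollagen, and release growth factors from the matrix. Adamts-like proteins share the accessory domains of the Adamts enzymes but lack the protease domain, and several bind the fibrillin microfibrils of the matrix. Timps bind the active site of Mmps and block it, and Timp3 also blocks some Adamts enzymes. Timp2 also helps Mmp14 to activate Mmp2. In peripheral nerve, matrix proteases are best known from injury, when they open the blood-nerve barrier, clear inhibitory proteoglycans and process myelin proteins.

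An estimated 29729619 reads lay on the transcripts of the control library and 20288183 on those of the Zeb2 cKO library. Levels are FPKM, a unit that corrects for transcript length and library size, which can be compared between genes. Zeb2 itself was at 34.4 FPKM in control nerve against 19.5 FPKM in Zeb2 cKO nerve, the direction of the labels, which do not name the deleted exons. The nerve markers Mbp, Pmp22, Sox10 and S100b were present in both libraries. Intervals quoted for a ratio are 95% counting intervals on estimated reads and do not hold the variation from one animal, pool or library to the next.

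The promoters of 4 members are shown because these genes had the largest difference in either direction, or are the called members among the abundant Mmps and the Timps. Each runs 5′ to 3′ on the gene's strand, over 300 bases that lie mostly before the transcription start, as RefSeq gives it on build GRCm38.p6. Capitals mark CACCT, the core of the motif that Zeb factors are known to bind, on either strand (AGGTG where it lies on the opposite strand). The Adamts17 window is chr7:66839485-66839784 on the plus strand, that of Adamts20 is chr15:94404301-94404600 on the minus strand, that of Mmp15 is chr8:95352046-95352345 on the plus strand, and that of Timp1 is chrX:20869916-20870215 on the plus strand.
Adamts17: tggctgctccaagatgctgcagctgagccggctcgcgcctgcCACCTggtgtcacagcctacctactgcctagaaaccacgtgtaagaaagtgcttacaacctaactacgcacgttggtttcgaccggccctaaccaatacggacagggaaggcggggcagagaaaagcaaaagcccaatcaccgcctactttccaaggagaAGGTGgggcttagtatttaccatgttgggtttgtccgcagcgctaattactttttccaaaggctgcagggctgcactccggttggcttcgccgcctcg
Adamts20: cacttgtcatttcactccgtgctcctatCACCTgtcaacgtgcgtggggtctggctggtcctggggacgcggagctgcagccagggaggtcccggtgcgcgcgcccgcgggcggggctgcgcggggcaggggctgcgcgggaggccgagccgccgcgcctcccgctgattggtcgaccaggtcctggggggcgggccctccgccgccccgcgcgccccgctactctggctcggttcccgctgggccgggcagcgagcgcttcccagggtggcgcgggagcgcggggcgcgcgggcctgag
Mmp15: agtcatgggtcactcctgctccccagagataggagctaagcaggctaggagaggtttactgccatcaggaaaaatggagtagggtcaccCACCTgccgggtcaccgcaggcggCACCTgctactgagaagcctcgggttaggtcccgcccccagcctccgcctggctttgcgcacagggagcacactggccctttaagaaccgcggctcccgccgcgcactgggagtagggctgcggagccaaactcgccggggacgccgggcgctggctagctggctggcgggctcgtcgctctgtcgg
Timp1: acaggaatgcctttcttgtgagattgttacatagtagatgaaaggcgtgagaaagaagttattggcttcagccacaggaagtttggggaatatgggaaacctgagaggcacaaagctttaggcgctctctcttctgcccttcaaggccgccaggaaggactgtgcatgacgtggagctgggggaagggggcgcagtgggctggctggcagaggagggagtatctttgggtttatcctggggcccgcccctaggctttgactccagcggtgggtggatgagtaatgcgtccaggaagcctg
The letters CACCT occur at 2 places in the Adamts17 window, at 1 in that of Adamts20, at 2 in that of Mmp15 and at 0 in that of Timp1. Adamts17 and Adamts20, the measured members with the largest and the smallest ratio, thus both hold them. Of 36 members with a promoter in the RefSeq table, 15 (41.7%) held CACCT, against 51.9% of all 32851 promoters of the same length. Members were counted by gene, over 39 promoters, and the background by single promoter. Of the 36, 20 had a mean level of at least 1 FPKM. The longer CACCTG, which contains CACCT, was held by 9 of the 36 (25.0%), against 20.2% of all promoters. A match is a run of letters in this window and does not show binding.

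Transcripts of these genes were mostly higher in the Zeb2 cKO library, 26 of 33 measured members lying above equality. So did 8723 of all 12903 measured genes. Adamts20 and Mmp15 were 2-fold or more lower. Differences were computed as log2((Zeb2 cKO FPKM + 1)/(control FPKM + 1)), and a gene was counted when this reached 2-fold and its mean level was at least 1 FPKM. Of the 51 members, 33 reached that level and 18 did not. Among the 33, 16 (48.5%) were 2-fold or more higher, where 8.59% of all measured genes were, and 2 (6.06%) were 2-fold or more lower, where 6.25% were. The remaining 15 lay within 2-fold. The median log2 ratio of the 33 was 0.93, beside 0.18 over all 12903 measured genes. Adamts3 and Adamts6 passed the filter through 1 library alone, being under 1 FPKM in the other. After the Zeb2 cKO values were scaled down so that the median gene had a ratio of 1, 10 members were 2-fold or more higher, where 6.06% of all genes were, and 2 were lower, where 7.50% were. Over all genes that scaling turned 1109 higher and 806 lower into 776 higher and 960 lower. The 6 that no longer reached 2-fold were Adamts2, Adamts19, Adamtsl4, Mmp16, Mmp19 and Mmp28. In RNA of whole nerve, a change in the number of cells of a type and a change in the RNA of each cell cannot be told apart.

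**Figure D1:**
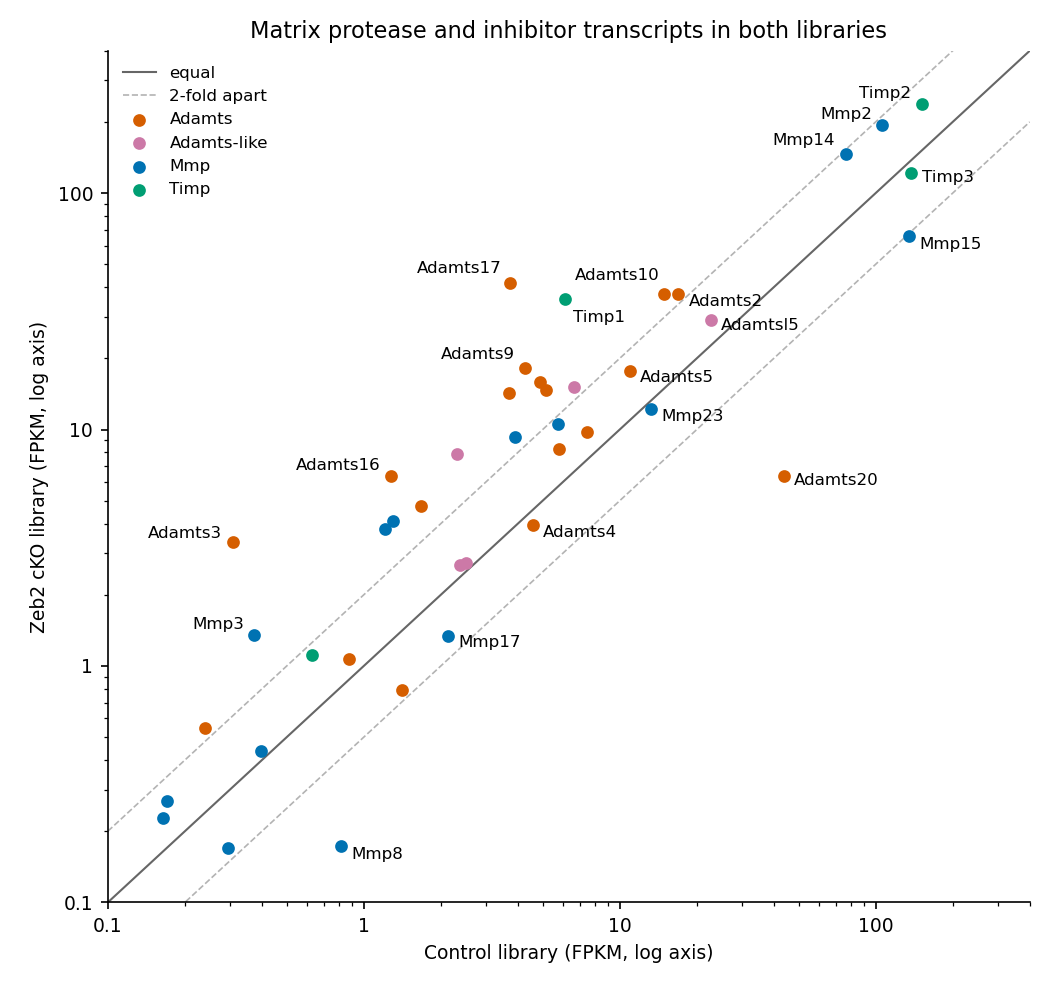
Level of each member in the control library (horizontal, FPKM, log axis) against the Zeb2 cKO library (vertical, FPKM, log axis), for the 42 members with a mean of at least 0.1 FPKM and above 0 in both libraries. Each point is 1 gene in 1 library of each genotype, and the dashed lines mark 2-fold. Mmp2, Mmp14, Mmp15, Timp2 and Timp3 sit at the top right, and Adamts20 stands far below the line of equality.

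The abundant Mmps of the nerve were the gelatinase Mmp2 and the membrane-type enzymes Mmp14 and Mmp15, which are anchored in the cell membrane. Mmp2 (chromosome 8, 95351227 to 95377319, mm9), which cuts denatured collagen and basement membrane collagen, was at 106 FPKM in control nerve against 194 FPKM in Zeb2 cKO nerve. That is 1.83-fold higher (interval 1.79 to 1.88), short of 2-fold. Mmp14 (chromosome 14, 55050441 to 55060095), the activator of Mmp2 and itself a collagenase, was at 76.4 and 147 FPKM, 1.92-fold higher (1.86 to 1.98). Mmp15 (chromosome 8, 97876237 to 97898193), a transmembrane relative of Mmp14, was at 135 and 65.7 FPKM, 2.06-fold lower (2.00 to 2.11).

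Together Mmp14 and Mmp15 were at 212 FPKM in control nerve against 212 FPKM in Zeb2 cKO nerve. By FPKM as deposited, the sum of the pair thus hardly differed while its make-up did. Scaled to the median gene, which divides Zeb2 cKO values by 1.158, the Zeb2 cKO sum is the lower one. Mmp15 made up 63.9% of the pair in the control and 30.9% in the Zeb2 cKO library. Mmp15 was the most abundant protease of the control library, and Mmp2 that of the Zeb2 cKO library. The call on Mmp15 is close to the threshold, with a log2 ratio of -1.03, and of -1.24 after rescaling to the median gene.

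The other membrane-type enzymes were low. Mmp16 was at 1.31 FPKM in control nerve against 4.12 FPKM in Zeb2 cKO nerve, 3.16-fold higher (2.67 to 3.72). Mmp17, held in the membrane by a lipid anchor, was at 2.14 and 1.34 FPKM, 1.60-fold lower (1.28 to 2.02). Mmp24 and Mmp25 were at 0.164 to 0.269 FPKM in both libraries, with intervals that include no difference.

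Among the remaining secreted and unconventional Mmps, Mmp28 (epilysin) was at 3.92 FPKM in control nerve against 9.28 FPKM in Zeb2 cKO nerve, 2.37-fold higher (2.06 to 2.73), and short of 2-fold by its most abundant row alone (log2 ratio 0.64). Mmp19 was at 1.21 and 3.80 FPKM, 3.13-fold higher (2.56 to 3.84). The locus of Mmp19 overlaps 1110012D08Rik, which was at 25.0 and 31.1 FPKM, and the labels do not say whether strand was used in counting. Mmp11 (stromelysin 3), which furin activates inside the cell, was at 5.72 and 10.6 FPKM, 1.85-fold higher (1.63 to 2.10). Mmp23 was at 13.3 and 12.3 FPKM, and its counting interval (0.815 to 1.04 as a ratio) includes no difference.

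The classical inducible Mmps were scarcely detected. Mmp1a, Mmp1b, Mmp3, Mmp7, Mmp8, Mmp10, Mmp12, Mmp13, Mmp20 and Mmp27 lie together on chromosome 9 within 426903 bases (7272514 to 7699416, mm9). This cluster holds the collagenases, the matrilysin and most of the stromelysins. None of these 10 genes reached a mean of 1 FPKM, and 6 of them (Mmp1a, Mmp1b, Mmp7, Mmp10, Mmp20 and Mmp27) were listed at 0 in both libraries. For those 6, a count of 0 allows at most 0.0257 to 0.141 FPKM, depending on transcript length and library. Summed over the cluster, the level was 1.49 FPKM in control nerve against 1.71 FPKM in Zeb2 cKO nerve.

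Inside that cluster, Mmp3 (stromelysin 1) was at 0.373 FPKM in control nerve against 1.35 FPKM in Zeb2 cKO nerve, on about 24 and 59 reads (3.62-fold higher, 2.21 to 6.07). Mmp8, the collagenase of neutrophils, was at 0.816 and 0.173 FPKM, on about 71 and 10 reads (4.72-fold lower, 2.48 to 10.5). The 8 neutrophil markers, all detected, summed to 34.7 FPKM in control nerve and 38.5 FPKM in Zeb2 cKO nerve, and 0 of the 5 measured were past 2-fold. Their part in the Mmp8 difference was not tested. Mmp9, the other gelatinase and outside the cluster, was at 0.395 and 0.435 FPKM. Mmp21 was seen with about 1 read in the control library only.

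**Figure D2:**
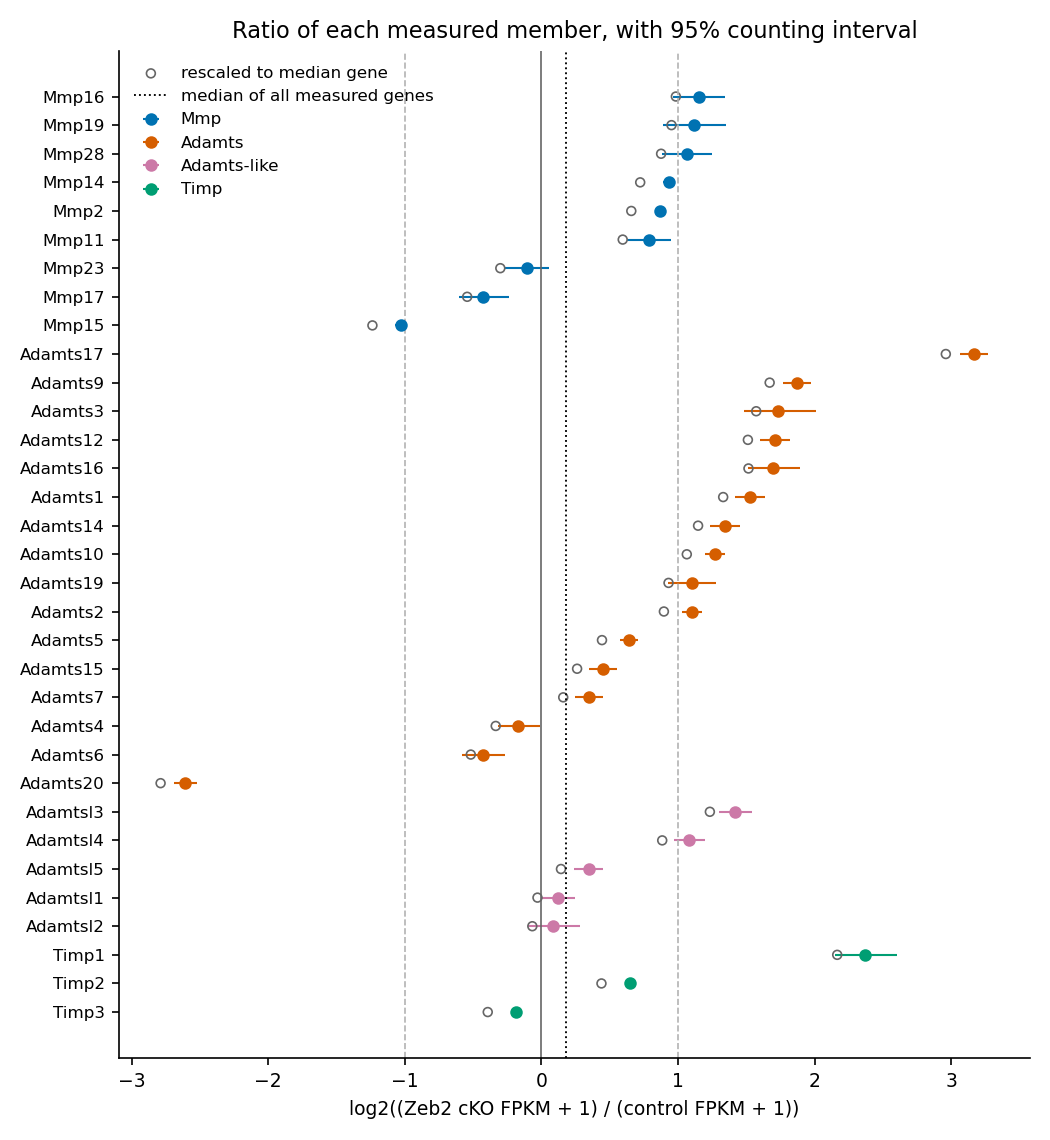
log2 ratio of Zeb2 cKO over control with a pseudocount of 1, for the 33 members with a mean of at least 1 FPKM, ordered within the Mmp, Adamts, Adamts-like and Timp groups. Bars are 95% counting intervals, open circles are values rescaled to the median gene, and dashed lines mark 2-fold. Adamts17 lies at 3.16 and Adamts20 at -2.61, and the other members lie between them.

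The Adamts proteases held most of the 2-fold differences. Of 16 measured Adamts genes, 10 (62.5%) were 2-fold or more higher and 1 was lower, and their summed level was 132 FPKM in control nerve against 242 FPKM in Zeb2 cKO nerve. For the 9 measured Mmps these counts were 3 higher and 1 lower. The shares of all measured genes to set beside these counts and those of the groups below are 8.59% higher and 6.25% lower. Rescaled to the median gene, Adamts2 and Adamts19 came short of 2-fold, and so did all 3 of the higher Mmps.

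Within the Adamts enzymes that cut versican and aggrecan, Adamts20 stood apart. Adamts20 (chromosome 15, 94100594 to 94234781, mm9), whose loss causes the belted white-spotting coat of mice through the pigment cells of the neural crest, was at 43.7 FPKM in control nerve against 6.34 FPKM in Zeb2 cKO nerve. It was 6.90-fold lower (6.44 to 7.39), on about 9427 and 904 reads. It was the most abundant Adamts gene of the control library, and Adamts17 took that place in the Zeb2 cKO library. Adamts20 made up 58.2% of the summed level of this group of 7 in the control and 8.87% in the Zeb2 cKO library.

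The other proteoglycan-cleaving enzymes were higher or little different. Adamts9, which together with Adamts20 cuts versican, was at 4.27 FPKM in control nerve against 18.2 FPKM in Zeb2 cKO nerve, 4.27-fold higher (3.96 to 4.61). Adamts1, also a versican-cutting enzyme, was at 4.88 and 16.0 FPKM, 3.27-fold higher (3.01 to 3.55). These are the 2 of the group past 2-fold upward.

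Adamts5, a main aggrecanase of cartilage, was at 11.0 FPKM in control nerve against 17.6 FPKM in Zeb2 cKO nerve, 1.61-fold higher (1.54 to 1.69). Adamts15 was at 5.80 and 8.27 FPKM. Adamts4, another aggrecanase, was at 4.56 and 3.95 FPKM, a ratio of 0.865 (0.757 to 0.989), and Adamts8 averaged under 1 FPKM. Without Adamts20 the group summed to 31.3 FPKM in control nerve against 65.1 FPKM in Zeb2 cKO nerve. With it the sums were 75.1 and 71.5 FPKM, so here too the total was close, before rescaling to the median gene, while the leading gene differed.

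The procollagen N-propeptidases, which remove the amino-terminal propeptide of fibrillar procollagens so that fibrils can form, were all 2-fold or more higher. Adamts2 was at 17.0 FPKM in control nerve against 37.5 FPKM in Zeb2 cKO nerve, 2.21-fold higher (2.10 to 2.33), and Adamts14 was at 5.17 and 14.6 FPKM, 2.83-fold higher (2.62 to 3.07). Adamts3, which also processes the lymphatic growth factor Vegfc, was at 0.308 and 3.34 FPKM, 10.9-fold higher (8.63 to 13.8), with about 83 reads in the control library. Their sum was 22.4 FPKM in control nerve against 55.5 FPKM in Zeb2 cKO nerve. Rescaled to the median gene, Adamts2 came short of 2-fold (log2 ratio 0.90).

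Adamts17 had the largest ratio of all members. Adamts17 (chromosome 7, 73984621 to 74297511, mm9), a protease linked to fibrillin microfibrils, was at 3.74 FPKM in control nerve against 41.5 FPKM in Zeb2 cKO nerve, on about 802 and 6062 reads. It was 11.1-fold higher (10.3 to 12.0), and by level it moved from place 9555 to place 1634 among the 21965 quantified genes. Its closest relative Adamts19 was at 1.67 and 4.74 FPKM, 2.83-fold higher (2.44 to 3.28), and did not reach 2-fold after rescaling (0.93).

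Adamts10, which like Adamts17 is a human Weill-Marchesani syndrome gene acting on fibrillin, was at 14.9 FPKM in control nerve against 37.4 FPKM in Zeb2 cKO nerve, 2.50-fold higher (2.37 to 2.64) over its 3 transcript rows, and short of 2-fold by its most abundant row alone (log2 ratio 0.91). Its relative Adamts6 was at 1.41 and 0.790 FPKM, 1.78-fold lower (1.40 to 2.30). Adamts12, which cuts cartilage oligomeric matrix protein, was at 3.68 and 14.3 FPKM, 3.88-fold higher (3.58 to 4.21). Its relative Adamts7, with the same substrate, was at 7.46 and 9.78 FPKM, 1.31-fold higher (1.21 to 1.41), so the relatives in both pairs differed from each other.

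Adamts16 was at 1.27 FPKM in control nerve against 6.36 FPKM in Zeb2 cKO nerve, 5.0-fold higher (4.31 to 5.83). Its relative Adamts18 averaged under 1 FPKM, at 0.239 and 0.546 FPKM. Adamts13, the plasma enzyme that cuts von Willebrand factor and is made mainly in liver, rested on about 7 and 9 reads.

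Among the Adamts-like proteins, Adamtsl3 and Adamtsl4 were 2-fold or more higher and 0 of 5 were lower. Adamtsl3 was at 2.32 FPKM in control nerve against 7.87 FPKM in Zeb2 cKO nerve, 3.39-fold higher (3.08 to 3.74). Adamtsl4, which binds fibrillin and is needed for the zonule that holds the lens, was at 6.66 and 15.2 FPKM, 2.28-fold higher (2.10 to 2.48). Rescaled to the median gene, its log2 ratio was 0.88.

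Adamtsl5 was the most abundant of these proteins, at 22.7 FPKM in control nerve against 29.1 FPKM in Zeb2 cKO nerve. Adamtsl1 was at 2.38 and 2.67 FPKM, and Adamtsl2, which binds the latent Tgfb-binding protein Ltbp1, at 2.51 and 2.72 FPKM. The log2 ratios of both, 0.12 and 0.08, became -0.03 and -0.07 after rescaling, so neither has a direction.

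The inhibitors were dominated by Timp2 and Timp3 in both libraries. Timp2 (chromosome 11, 118162375 to 118216725, mm9) was at 151 FPKM in control nerve against 237 FPKM in Zeb2 cKO nerve, 1.57-fold higher (1.54 to 1.60). Timp3 (chromosome 10, 85763157 to 85812250), which is held in the matrix and also blocks Adamts4, Adamts5 and the sheddase Adam17, was at 138 and 121 FPKM, a ratio of 0.879 (0.861 to 0.898). These 2 genes made up 97.7% of the summed Timp level in the control and 90.7% in the Zeb2 cKO library.

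The remainder was mostly Timp1. Timp1 (chromosome X, 20447292 to 20451863), an inducible inhibitor that acts poorly on membrane-type Mmps, was at 6.12 FPKM in control nerve against 35.8 FPKM in Zeb2 cKO nerve, 5.85-fold higher (4.99 to 6.89). It was the one measured Timp past 2-fold, and remained so after rescaling (log2 ratio 2.16). Timp4 was at 0.626 and 1.11 FPKM. Timp1, Timp3 and Timp4 overlap the loci of Syn1, Syn3 and Syn2, synapsin genes of neurons, which ranged from 0.483 to 5.30 FPKM in control nerve and from 0.817 to 1.59 FPKM in Zeb2 cKO nerve. Syn1 was at 0.507 and 1.17 FPKM, far below Timp1. The locus of Timp2 overlaps BC100451, at 0.381 and 0.430 FPKM.

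Set against each other, proteases and inhibitors were both higher in sum, by similar ratios. The 42 proteases summed to 479 FPKM in control nerve against 693 FPKM in Zeb2 cKO nerve, 1.45-fold higher. The 4 Timps summed to 296 and 396 FPKM, 1.34-fold higher. The protease sum was 1.62 times the Timp sum in the control and 1.75 times in the Zeb2 cKO library, a ratio of 1.08 between the libraries (counting interval 1.06 to 1.10). The median log2 ratio was 1.06 over the 25 measured proteases and 0.65 over the 3 measured Timps. These sums add transcripts, not active enzyme. The protease sum includes the Adamts genes, at 132 and 242 FPKM, so the ratio does not pair each protease with a Timp that blocks it. Mmp2, Mmp14 and Mmp15 made up 66.3% of the protease sum in the control and 58.7% in the Zeb2 cKO library.

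**Figure D3:**
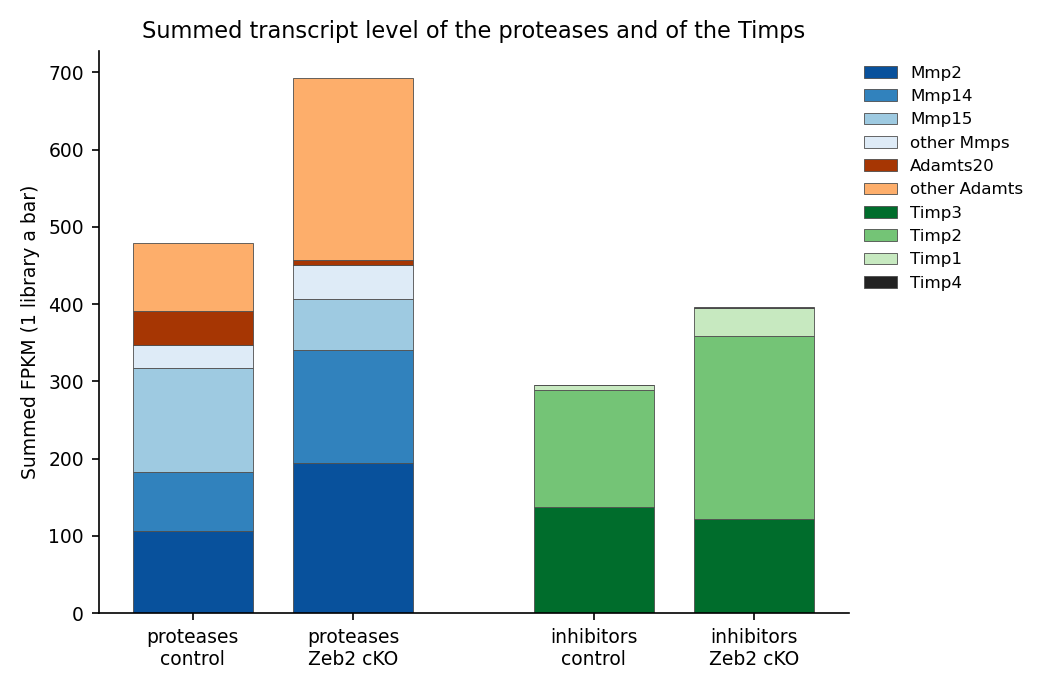
Summed FPKM of the proteases (left pair of bars) and of the Timps (right pair) in the control and the Zeb2 cKO library, 1 library a bar, stacked by gene or group. The protease bars reach 479 and 693 FPKM and the Timp bars 296 and 396 FPKM, and the Mmp15 and Adamts20 segments are smaller in the Zeb2 cKO library.

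Of the members, 7 were listed under more than 1 RefSeq transcript, and the split of reads between overlapping transcripts is an estimate by Cufflinks. All 3 Adamts20 rows were lower in the Zeb2 cKO library. The 6119-base row was at 37.6 FPKM in control nerve against 4.36 FPKM in Zeb2 cKO nerve, 8.62-fold lower, the 6980-base row at 4.59 and 1.34 FPKM, and the 1964-base row at 1.58 and 0.642 FPKM. For Adamts10, the protein-coding row was at 4.10 and 4.70 FPKM, a ratio of 1.15, while the rows of its 2 non-coding variants were at 10.6 and 20.9 FPKM and at 0.213 and 11.8 FPKM. These 3 rows share their start and end and are 4065, 4053 and 4070 bases long, so reads hardly separate them and the split is uncertain.

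Both rows of Timp1, of Adamts3, of Mmp28, of Mmp19 and of Adamtsl5 were higher in the Zeb2 cKO library. For Timp1 they were at 1.93 and 15.3 FPKM and at 4.19 and 20.5 FPKM. The Timp1 rows differ by 3 bases in length, as do those of Adamts3, so reads hardly separate them. For Mmp19 the difference lay in 1 row, at 0.698 and 3.11 FPKM, with the other at 0.516 and 0.693 FPKM.

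**Figure D4:**
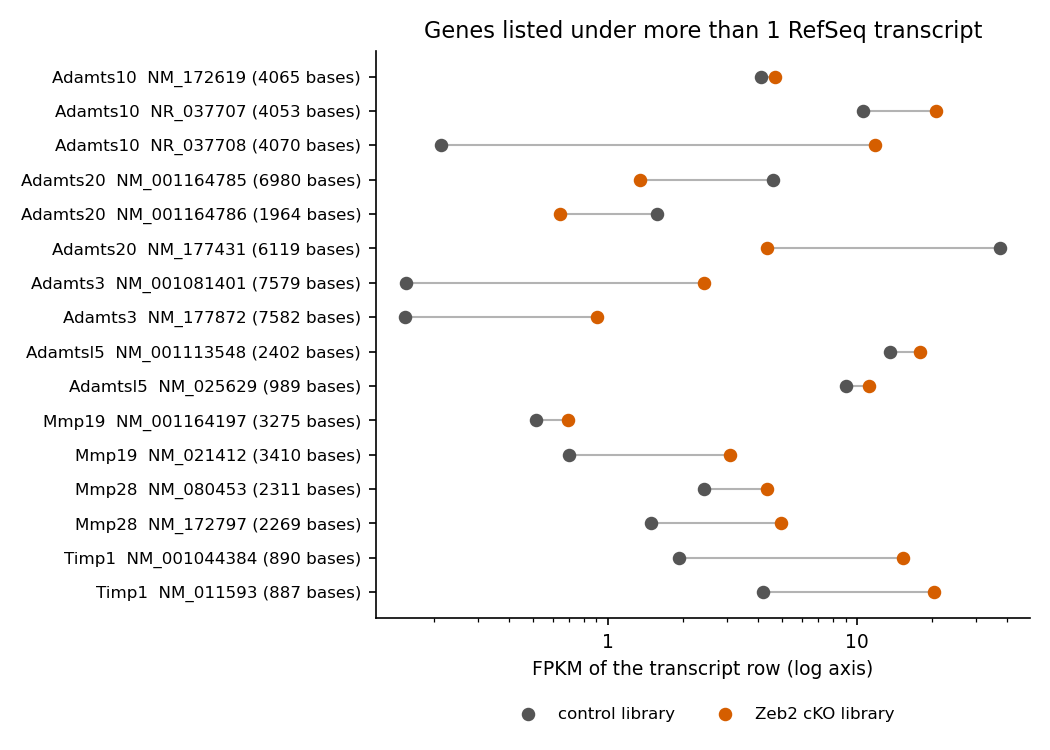
FPKM (log axis) of the 16 RefSeq transcript rows of the 7 members listed under more than 1 row, in the control library (grey) and the Zeb2 cKO library (orange). The 3 Adamts20 rows are lower in the Zeb2 cKO library and the other 13 rows are higher, the Adamts10 row of 4070 bases from 0.213 to 11.8 FPKM.

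Genes that act with these proteases were compared in the same way, in lists given by their role. Of 17 measured matrix substrates, 9 were 2-fold or more higher and 0 lower, with a median log2 ratio of 1.11. The shares of all measured genes to set beside this count and those of the lists that follow are 8.59% higher and 6.25% lower. The versican gene Vcan, the substrate of Adamts1, Adamts9 and Adamts20, was at 9.84 FPKM in control nerve against 34.4 FPKM in Zeb2 cKO nerve. The related proteoglycans Ncan and Bcan and their link protein Hapln1 were 25.0-fold, 6.49-fold and 6.09-fold higher, from control levels of 0.334, 0.517 and 0.329 FPKM. Being under 1 FPKM in the control library, all of these passed the filter through the Zeb2 cKO library alone. The remaining 5 were Tnc (7.08-fold), Fbn2 (2.77-fold), Dcn (2.62-fold), Fn1 (2.61-fold) and Bgn (2.16-fold), which came short of 2-fold when rescaled to the median gene (log2 ratio 0.90). The fibrillar collagens Col1a1, Col1a2, Col3a1 and Col5a1, whose procollagens the N-propeptidases trim, were within 2-fold, at log2 ratios of 0.43, 0.53, 0.76 and 0.48.

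Enzymes next to these families differed in both directions. Bmp1, which removes the other propeptide of procollagen, was at 41.5 FPKM in control nerve against 107 FPKM in Zeb2 cKO nerve, and its relative Tll1 was at 5.0 and 1.61 FPKM. They were the 1 higher and the 1 lower gene of 5 in their list. Tll2 was at 1.86 and 0.636 FPKM, 2.92-fold lower, but within 2-fold with the pseudocount (log2 ratio -0.81). Of 10 measured Adam genes, membrane relatives of the Adamts enzymes, Adam12 and Adam33 were 3.37-fold and 2.82-fold higher. Adam10, a sheddase that cuts Notch and many membrane proteins, was lower, from 154 to 71.6 FPKM, and so was Adam23, from 10.7 to 1.12 FPKM. Adam17 was at 33.1 and 31.1 FPKM.

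Other inhibitors, activators and uptake receptors completed the picture. Of 9 measured inhibitors outside the Timps, A2m, the broad protease trap alpha-2-macroglobulin, and Tfpi2 were 4.82-fold and 3.06-fold higher, and Spock1, a proteoglycan, was lower, from 2.52 to 0.222 FPKM. Spock1 passed the filter through the control library alone. Reck, a membrane-anchored inhibitor of Mmp2, Mmp9 and Mmp14, was at 13.6 and 20.0 FPKM. Of 11 measured genes in the list of activators and cofactors, Prss35 alone was counted as 2-fold apart, at 3.84 and 185 FPKM. Its place in that list is a choice made here, and an action of it on these proteases was not tested. Plaur was at 1.63 and 3.42 FPKM, 2.10-fold higher, but within 2-fold with the pseudocount (log2 ratio 0.75). Furin, which activates Mmp14 and Mmp11, was at 14.7 and 26.7 FPKM. Among 4 measured uptake receptors, Vldlr and the collagen receptor Mrc2 were 3.49-fold and 2.87-fold higher, and Lrp1, which clears many of these proteases, was at 17.9 and 36.1 FPKM.

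Markers of the cells in the nerve differed between the libraries as well. The summed level of 7 endoneurial fibroblast markers was 3925 FPKM in control nerve against 6362 FPKM in Zeb2 cKO nerve, 1.62-fold higher, with all 7 detected. That of 5 perineurial markers was 76.2 and 261 FPKM, 3.43-fold higher, with Cldn1 at 24.2 and 135 FPKM. Fibroblasts and perineurial cells are known sources of matrix proteases, and the part of these cells in the higher members was not tested. Mmp2, Mmp14 and Timp2, at 1.57-fold to 1.92-fold, lay near the fibroblast sum and also near the sum of 6 endothelial markers (1.75-fold). Most of the fibroblast sum was Col1a1 and Col1a2, at 1.35-fold and 1.44-fold, and the median log2 ratio of the 7 was 1.03. Adamts17, at 11.1-fold, lay above each of the 7 fibroblast markers, which ranged from 1.35-fold to 3.19-fold. The 5 perineurial markers ranged from 1.11-fold (Itgb4) to 11.7-fold (Moxd1), with Slc2a1, Dleu7 and Cldn1 at 2.68-fold, 5.29-fold and 5.58-fold.

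The lower members stood beside lower Schwann cell and muscle markers. Of 6 Schwann cell and myelin markers, 5 had a usable row, all lower, with a sum of 23903 FPKM in control nerve against 1248 FPKM in Zeb2 cKO nerve (19.2-fold lower). Sox10, a transcription factor of Schwann cells from precursor to myelinating cell, was at 139 and 69.2 FPKM, a ratio of 0.498 beside 0.486 for Mmp15 and 0.145 for Adamts20. The 6 skeletal muscle markers summed to 5841 and 686 FPKM, 8.51-fold lower, all 6 detected in both libraries. The part of either cell type in the lower level of Mmp15 and Adamts20 was not tested.

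Other cells that make these proteases differed less evenly. Macrophage markers (6 of 6 detected) summed to 85.9 FPKM in control nerve against 104 FPKM in Zeb2 cKO nerve, and endothelial markers (6 of 6) to 99.3 and 174 FPKM. Pericyte and smooth muscle markers (5 of 5) summed to 241 and 243 FPKM, with Rgs5 and Cspg4 2.07-fold and 2.15-fold higher and Des, also a muscle gene, 5.05-fold lower. The sums were, for mast cell markers (5 of 5), 41.2 and 85.5 FPKM, and for adipocyte markers (4 of 4), 215 and 522 FPKM. Cartilage markers, of 7 genes, summed to 12.5 and 27.0 FPKM, with Matn1 and Matn3 listed at 0 in the Zeb2 cKO library. Bone and osteoclast markers, of 6 genes, summed to 50.4 and 77.1 FPKM, most of it Ctsk at 46.3 and 63.1 FPKM. The part of these cells in the members' differences was not tested.

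**Figure D5:**
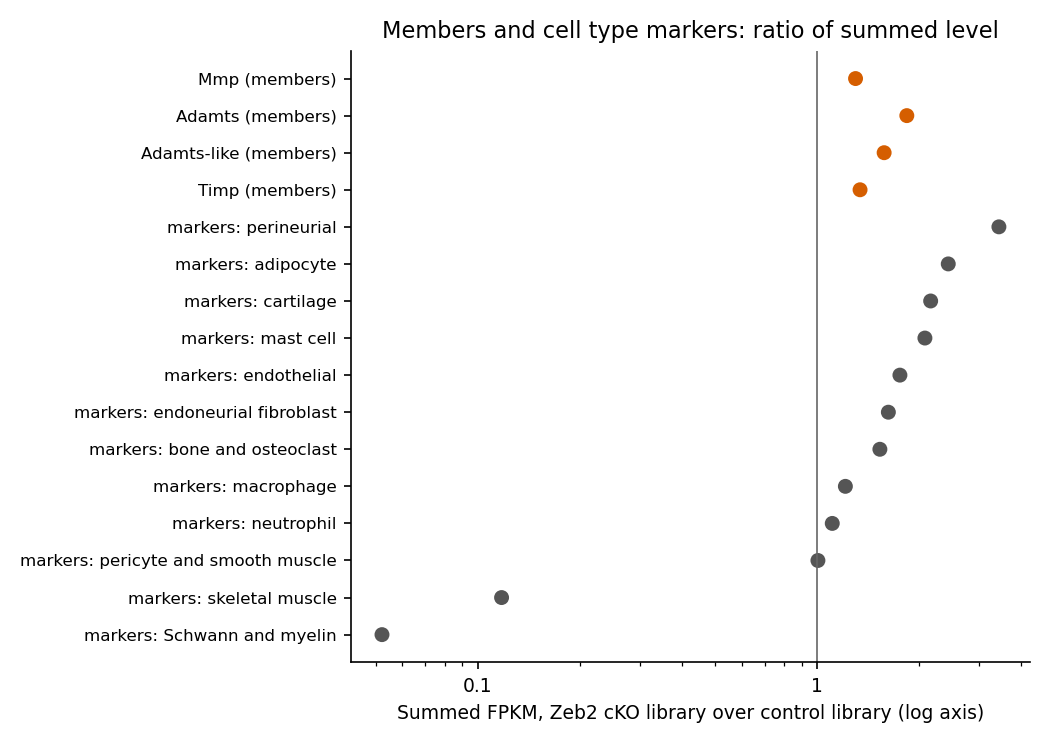
Ratio of summed FPKM, Zeb2 cKO library over control library (log axis), for the Mmp, Adamts, Adamts-like and Timp genes (orange) and for the marker lists of other cell types (grey), 1 library of each genotype. The member groups lie between 1.30 and 1.84, the perineurial markers at 3.43 and the Schwann cell and myelin markers at 0.0522.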

How the data were processed

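Total RNA of pooled sciatic nerves was extracted with Trizol and made into libraries with an Illumina TruSeq kit, per the labels' protocols. Reads were processed by the authors with CASAVA, TopHat, Cufflinks and Cuffdiff on mm9, per the submitters' processing notes. Tool versions are not given in the sources used here. The FPKM values and the coverage signal (mean depth per base, not scaled to library size) are as the authors deposited them, with the length of each of 28107 RefSeq transcripts, per the file headers. Whether strand was used in counting is not stated.

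Rows were kept when both tables gave the status OK (295 rows were not, 0 of them of members), and FPKM was summed by symbol. Reads were estimated as coverage times length over 52.6 bases, the median of 479 single-read values. Intervals are Clopper-Pearson (95%) on those reads, centred on the FPKM ratio for genes of several transcripts, and that of the protease to Timp ratio uses the Poisson error of summed reads on the log scale. The pseudocount of 1 understates the change of low genes. The code was tested on simulated data. Both samples of a group name the same table, so a table stands for the group. The workbook the labels also name was not analysed here. Genes named were all members at a mean of 1 FPKM or more, members below that level by symbol, and genes of other lists past 2-fold. Other genes named beside these (Adam17, Tll2, the collagens, Reck, Plaur, Furin, Lrp1, overlapping genes and single markers) and the promoters shown were chosen after their values were seen. Members and lists were chosen with earlier results of these data known. Promoters came from RefSeq on GRCm38.p6. Alternatives were other pseudocounts, filters, scalings, thresholds, statuses and the top row of each symbol. Computations used Python 3.11.15, pandas 2.3.3 and SciPy 1.17.1. The values of some single genes of the lists are not reported here.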

Additional observations from a re-analysis of the deposited data

How the results depend on the processing

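No paired analysis was possible because each table used here holds 1 library of its group, although the labels give 2 samples a group, and leaving out a library was not possible with these tables either. The 16 members counted as higher and the 2 as lower were the same with a pseudocount of 0.1 or 0.5, without a filter and with every status kept. In that order, 12.1%, 10.4%, 5.24% and 8.64% of all genes were higher, and 7.04%, 6.67%, 3.79% and 6.27% were lower. With a pseudocount of 5 there were 6 higher and 1 lower, where 3.70% and 4.10% of all genes were. At 3-fold there were 6 and 1, where 3.11% and 3.54% were. Rescaled to the median gene 10 were higher, where 6.06% were. At a mean of at least 5 FPKM 11 remained higher, where 8.12% of all genes were, and with upper-quartile scaling 12, where 6.71% were. With the top row of each symbol there were 14, without Adamts10 and Mmp28, where 8.93% of all genes were. The median of the proteases was 0.55 with a pseudocount of 5, 0.23 without a filter, where genes at 0 enter it, and 0.88 after rescaling. That of the Timps was 0.51 without a filter, 0.44 after rescaling and 0.51 with upper-quartile scaling. The protease to Timp ratio between libraries was 1.11 with the top row of each symbol. None of the 18 members counted as 2-fold apart changed direction under these alternatives, and Adamtsl1 and Adamtsl2, within 2-fold, did.

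For the lists of other genes, alternatives were chosen after the data were examined. Genes of the activator list counted as higher were 2 with a pseudocount of 0.1 and 5 at 1.5-fold. At 1.5-fold 19.7% of all genes were higher and 9.81% lower, and at a mean of 5 FPKM 6.79% were lower. The shares of all genes at the other settings are those given above. Other inhibitors were 1 higher and 0 lower with a pseudocount of 5 and at 3-fold, and 0 lower at a mean of 5 FPKM. Tolloid genes were 2 lower with a pseudocount of 0.1 or 0.5, 0 lower with 5 and at a mean of 5 FPKM, 3 higher and 2 lower at 1.5-fold, and 0 either way at 3-fold. Adam genes were 4 higher at 1.5-fold, and 0 higher and 1 lower at 3-fold. Substrates were 6 higher at a mean of at least 5 FPKM and 3 higher at 3-fold, and uptake receptors 1 higher at 3-fold. The cause of these shifts was not tested beyond the change of threshold or filter itself. At this depth, members with a mean under 1 FPKM rest on at most 113 reads in a library.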

Other observations

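Outside the chromosome 9 cluster, 3 pairs of members lie next to each other in the genome. Adamts1 and Adamts5 are separated by 55041 bases on chromosome 16, with log2 ratios of 1.53 and 0.64. Adamts15 and Adamts8 are separated by 20110 bases on chromosome 9, with 0.45 and 0.14, and Adamts13 and Adamtsl2 by 69755 bases on chromosome 2, with 0.06 and 0.08, Adamts13 and Adamts8 being under a mean of 1 FPKM. These values are descriptions of 1 library of each genotype.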
